A study of Mus musculus with 16 samples.

Results

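Lung cells of mice given 6-OHDA were compared with lung cells of mice given vehicle, in the absence of seeded pancreatic cancer cells. The cells were those that the deposited cell table marks as coming from unseeded lungs under 6-OHDA or control treatment. They numbered 33509 of 80449 cells, with 11628 in 3 samples under 6-OHDA and 21881 in 3 samples under vehicle. Raw transcript counts were summed per sample and annotated cell type, so that each sample gave 1 value per gene and type.

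The study profiled whole-lung suspensions after vehicle, 6-OHDA or BIBO3304, an antagonist of the neuropeptide Y receptor NPY1R, in lungs that had or had not been seeded with cells of pancreatic ductal adenocarcinoma (PDAC). Its 15 samples were barcoded together by split-pool combinatorial indexing after sorting of live single cells. The sources used here do not give the strain, age and sex of the mice, what the vehicle was, or the dose and timing of 6-OHDA. Vehicle samples 1 to 3 held 8010, 6295 and 7576 cells, and 6-OHDA samples 1 to 3 held 3963, 4144 and 3521. Whether each numbered sample came from its own mouse is not stated, and the spread behind each p-value may therefore be technical. The nerve endings themselves were not measured, because their cell bodies lie outside the lung and their RNA is not part of a cell suspension.

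Sympathetic fibres follow the airways and vessels of the lung and release noradrenaline, with neuropeptide Y as a cotransmitter. Noradrenaline acts on alpha and beta adrenergic receptors and is cleared by the noradrenaline transporter, the product of Slc6a2, which is made by sympathetic neurons and also by endothelial cells of the pulmonary circulation. 6-OHDA (6-hydroxydopamine) resembles noradrenaline, enters cells through this transporter, and damages them by oxidation, so it is widely used to remove sympathetic endings. The transporter is therefore both the route of the toxin and a gene expressed by cells that were measured here.

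The 6 samples differed in depth. Total transcripts ran from 10003796 to 21346701 per sample. The median cell held 2078 to 2223 transcripts under 6-OHDA and 1640 to 1906 under vehicle, so cells were deeper in every 6-OHDA sample, and the median mitochondrial percent was 1.14 to 1.59 against 1.5 to 1.99. Each of 21 marker lists was highest in the annotated type of its name. The annotation also placed 1 to 2 cancer cells in each vehicle sample (0.0132 to 0.0250% of cells) and 0 under 6-OHDA. Each of the 16 sublibraries held 2.78 to 10.8% of the cells of every sample in the study, and no first-round barcode well was shared between samples. Of 70289 distinct barcode triplets, 8740 occurred in more than 1 sublibrary, and such cells were kept apart by sublibrary.

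The make-up of the lung suspension differed in 3 cell types. Monocytes, the circulating precursors of macrophages, made up 2.36, 3.88 and 1.82% of cells in vehicle samples 1 to 3 and 6.46, 8.78 and 9.94% in 6-OHDA samples 1 to 3. Neutrophils, the short-lived granulocytes of early inflammation, made up 1.12, 1.54 and 1.52% under vehicle and 4.14, 3.26 and 2.61% under 6-OHDA. Alveolar macrophages, the resident phagocytes of the airspace, made up 35.5, 42.5 and 36.2% under vehicle and 24.5, 21.8 and 20.7% under 6-OHDA. In all 3 types the lowest sample of the higher group lay above the highest sample of the lower group.

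By edgeR's quasi-likelihood test on cell numbers with Benjamini-Hochberg adjustment over 22 types, the log2 fold change of 6-OHDA over vehicle was 1.65 ± 0.367 (SE, adjusted p = 0.00440) for monocytes. It was 1.26 ± 0.314 (adjusted p = 0.00765) for neutrophils and -0.77 ± 0.172 (adjusted p = 0.00440) for alveolar macrophages. Called types were 13.6% of those tested, and 27.3% had groups that did not overlap. The two-sided exact permutation p was 0.1 for each, the smallest that 3 against 3 samples allow. Shares sum to 100%, so the test was repeated with alveolar macrophages left out of the numbers and the total. Monocytes then still passed (1.29, adjusted p = 0.0429), neutrophils did not (0.93, adjusted p = 0.0665), and large-vessel endothelial cells passed as lower (-1.03, adjusted p = 0.0429). The neutrophil call was also lost without vehicle 1 or without 6-OHDA 1.

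**Figure D1:**
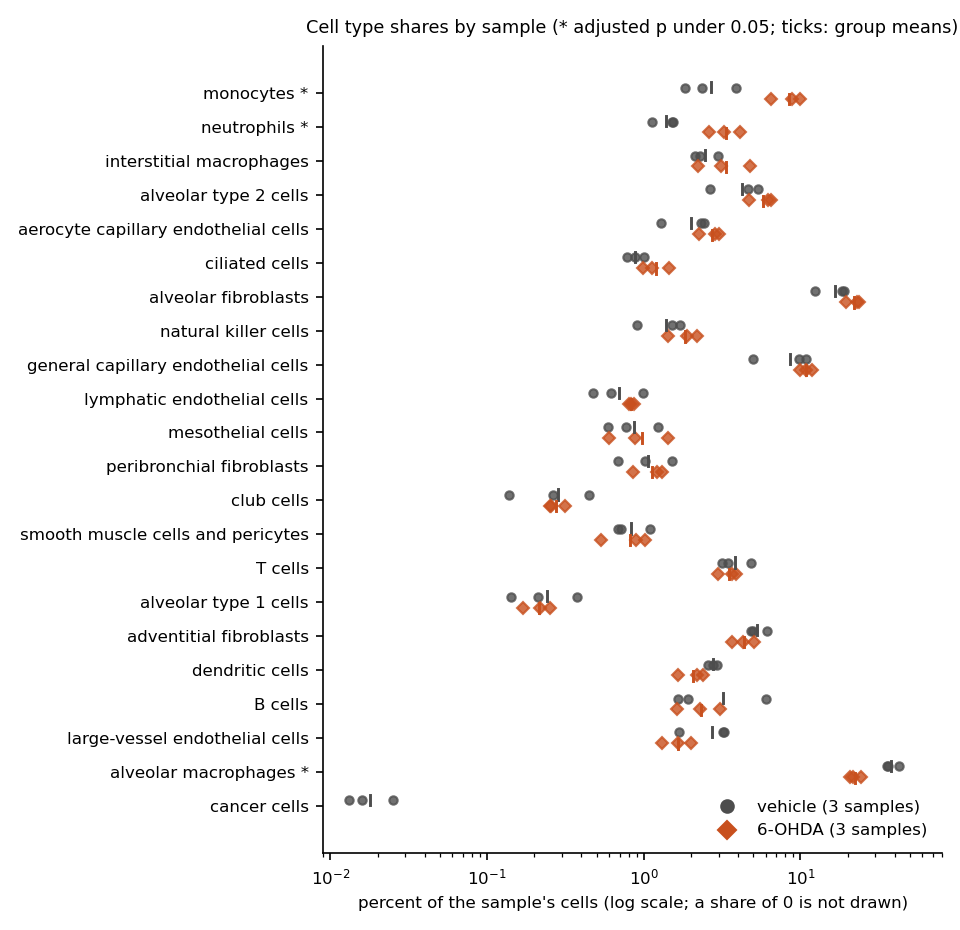
Share of each annotated cell type in each sample, in percent of the sample's cells on a log axis, with circles for vehicle, diamonds for 6-OHDA and ticks for group means. Monocytes (1.82 to 3.88% against 6.46 to 9.94%), neutrophils and alveolar macrophages carry a star for an adjusted p under the threshold of 0.05.

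The monocytes were split by marker transcripts into classical cells (Ly6c2, Ccr2 and others), which enter inflamed tissue, and nonclassical cells (Ace, Cd300e and others), which patrol vessel walls. A cell went to the list with the most transcripts, at least 2 and more than the other list. Classical cells made up 32.9, 48.1 and 27.2% of assigned monocytes under vehicle and 45.8, 44.0 and 27.6% under 6-OHDA, and the groups overlapped (difference 3.06 percentage points). The median monocyte held 1123 to 1414 transcripts under vehicle and 1866 to 2009 under 6-OHDA. With cells thinned to 1000 transcripts the classical shares were 31.3, 54.3 and 34.2% against 41.7, 43.3 and 27.7%, which also overlapped (difference -2.36). As shares of all cells both kinds were higher in every 6-OHDA sample. Classical monocytes made up 0.649, 1.43 and 0.409% of cells under vehicle and 2.60, 3.28 and 2.39% under 6-OHDA. Nonclassical monocytes made up 1.32, 1.54 and 1.10% under vehicle and 3.08, 4.17 and 6.25% under 6-OHDA. Within monocytes 0 of 6924 genes passed edgeR's test, and 417 had an unadjusted p under 0.05.

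Expression was tested gene by gene within 19 cell types that held at least 20 cells in enough samples. A gene was called where edgeR's quasi-likelihood test gave a Benjamini-Hochberg adjusted p under 0.05 within its type. Calls numbered 76 of 113537 tests (0.0669%), of which 57 were higher (0.0502%) and 19 lower (0.0167%) under 6-OHDA, in 9 types. Without regard to the test, 14.4% of genes had groups that did not overlap and 49.1% were higher by sign. Dendritic cells held 43 calls, large-vessel endothelial cells 11 and general capillary endothelial cells 8. All levels below are CPM, counts scaled to a fixed total of the sample's transcripts in that type, with TMM scaling, and are not scaled for gene length. The calls rest on few samples, since without vehicle 1 only 4 calls were made in all types and without 6-OHDA 2 there were 25.

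In large-vessel endothelial cells, which line veins and arteries, the transcript that fell with the smallest p was that of the noradrenaline transporter. Slc6a2 stood at 549, 612 and 635 CPM in vehicle samples 1 to 3 and at 156, 118 and 99.0 CPM in 6-OHDA samples 1 to 3. The highest 6-OHDA sample was far below the lowest vehicle sample. The log2 fold change was -2.26 ± 0.234 (SE, n = 3 samples a group, edgeR adjusted p = 7.32e-07). Calls in this type were 11 of 5856 genes (0.188%), 4 higher (0.0683%) and 7 lower (0.120%). The Slc6a2 call held in 15 of 15 alternative fits, those without each sample in turn among them, while the number of calls in this type fell to 1 without vehicle 1.

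The fall in Slc6a2 was also seen cell by cell. Large-vessel cells with at least 1 transcript numbered 103 of 262 (39.3%, 95% Clopper-Pearson interval 33.4 to 45.5), 42 of 106 (39.6%, 30.3 to 49.6) and 113 of 242 (46.7%, 40.3 to 53.2) under vehicle. Under 6-OHDA they numbered 11 of 52 (21.2%, 11.1 to 34.7), 11 of 83 (13.3%, 6.81 to 22.5) and 5 of 58 (8.62%, 2.86 to 19.0). The intervals cover counting error only. The median cell was deeper under 6-OHDA (1582 to 2060.5 transcripts) than under vehicle (1202 to 1489). With every cell thinned to 1000 transcripts, which kept 178, 67 and 172 vehicle cells and 44, 66 and 48 cells under 6-OHDA, the shares were 31.5, 28.4 and 35.5% under vehicle and 4.55, 1.52 and 6.25% under 6-OHDA. General capillary cells, which should lack the transporter, gave 0.365 to 1.27% over the 6 samples without thinning, at median depths of 925 to 1275 transcripts.

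Markers split the large-vessel cells into venous (Vwf, Selp, Prss23 and others) and arterial (Gja5, Bmx, Efnb2 and others) kinds. Venous cells made up 90.6, 88.4 and 91.1% of assigned cells under vehicle and 81.6, 72.2 and 83.0% under 6-OHDA, so the groups did not overlap (difference -11.1 percentage points, two-sided exact permutation p = 0.1, 0.267 adjusted over the 8 classes of 3 types). Of all lung cells, venous cells made up 2.77, 1.33 and 2.57% under vehicle and 1.01, 1.25 and 1.11% under 6-OHDA, while the arterial shares overlapped. Within venous cells alone Slc6a2 stood at 595, 727 and 721 CPM under vehicle and at 172, 172 and 131 CPM under 6-OHDA (-2.08 ± 0.236, SE, edgeR adjusted p = 8.39e-06). In that fit 7 of 5426 genes were called (0.129%), 6 of them among the 11 calls of the whole type, and all 11 had the same sign. In the large-vessel cells that were not assigned as venous, 109 under vehicle and 62 under 6-OHDA, Slc6a2 stood at 224, 197 and 226 CPM under vehicle and at 0 in all 3 samples under 6-OHDA, which did not pass the test (adjusted p = 0.668). The transcript was thus lower within venous cells as well as in the whole type.

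The 4 genes that rose in large-vessel cells encode secreted, adhesion and matrix proteins or are little known. Clu, which encodes the extracellular chaperone clusterin, stood at 58.3, 57.6 and 84.7 CPM under vehicle and at 184, 186 and 297 CPM under 6-OHDA (1.67 ± 0.290, edgeR adjusted p = 0.00819). Col5a2, a chain of the fibrillar collagen V, stood at 149, 122 and 128 CPM under vehicle and at 297, 298 and 312 CPM under 6-OHDA (1.16 ± 0.240, adjusted p = 0.0289). Lsamp, a cell surface adhesion molecule first known from the limbic system, and Fam135a rose by 2.63 and 1.36 on the log2 scale. The Lsamp values under 6-OHDA were uneven, at 311, 43.4 and 129 CPM, and its call did not survive the loss of 6-OHDA 1 or of any vehicle sample. In these cells Col5a2 was called with all samples present and in no fit that left out a sample. Clu was lost only without vehicle 1 among those fits.

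Besides Slc6a2, 6 genes fell in large-vessel cells. Hpgd, the enzyme that inactivates prostaglandins, stood at 335, 317 and 244 CPM under vehicle and at 84.9, 130 and 68.5 CPM under 6-OHDA (-1.62 ± 0.296, edgeR adjusted p = 0.00910). Clearance of prostaglandins, like that of noradrenaline, is a known task of the pulmonary circulation. Ano2, a calcium-activated chloride channel, fell by 1.69 on the log2 scale, Fmnl2, a formin that elongates actin filaments, by 1.24, and Ccnd3, cyclin D3 of the G1 phase, by 1.69. Within venous cells Clu (1.93, adjusted p = 0.00223) and Hpgd (-1.83, adjusted p = 0.0107) were also called, as was Sulf1, an extracellular sulfatase of heparan sulfate (1.37, adjusted p = 0.0355). Tenm2, a teneurin adhesion receptor, was seen as 48 transcripts in 14 of 610 vehicle cells and in 0 of 193 cells under 6-OHDA. Since 13 of the 48 lay in a single cell, the Tenm2 call rests on few cells, and the level is at least 5.89-fold lower when the 6-OHDA group is set to a floor of 3 counts in all.

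**Figure D2:**
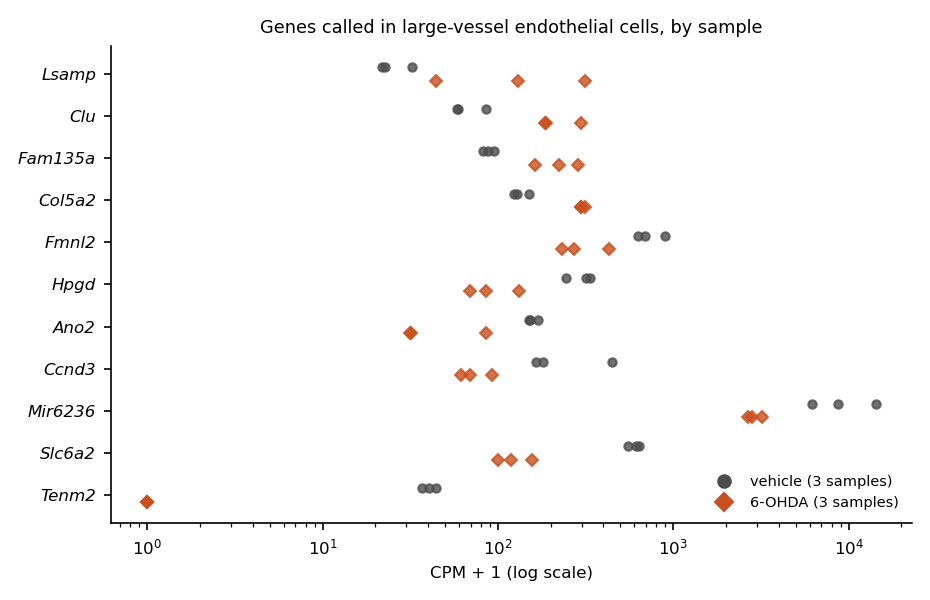
Level of the 11 genes called in large-vessel endothelial cells, in CPM + 1 on a log axis, with a circle for each vehicle sample and a diamond for each 6-OHDA sample. For each gene the 2 groups lie apart, and Slc6a2 runs from 99.0 to 156 CPM under 6-OHDA and from 549 to 635 CPM under vehicle.

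Other genes of noradrenaline handling gave no call. The list held the synthetic enzymes Th, Ddc, Dbh and Pnmt, the vesicular and plasma membrane transporters, and degrading enzymes such as Maoa and Maob. Its members could be tested 41 times over 13 types, with Slc6a2 in large-vessel cells as the single call. Slc6a2 was also tested in 4 other types, at mean levels under vehicle of 1.49 to 7.77 CPM, and none of these was called. Slc22a3, an extraneuronal transporter of monoamines, stood at 17.4, 16.9 and 11.5 CPM in alveolar fibroblasts under vehicle and at 26.3, 24.0 and 22.3 CPM under 6-OHDA (0.68, edgeR adjusted p = 0.515). Maoa in general capillary cells stood at 60.5, 50.8 and 69.4 CPM under vehicle and at 68.9, 42.9 and 76.6 CPM under 6-OHDA, with overlapping groups.

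Adrenergic receptor transcripts were tested 22 times with edgeR, for 5 genes over 11 types. They gave 0 calls, and a single test reached an unadjusted p under 0.05. Adra1a, an alpha receptor, was the highest of them, at 510, 318 and 461 CPM in alveolar fibroblasts under vehicle and at 443, 352 and 286 CPM under 6-OHDA (-0.26 ± 0.178, adjusted p = 0.775). Adrb1, a beta receptor, stood at 81.4, 88.9 and 78.9 CPM in general capillary cells under vehicle and at 118, 111 and 96.6 CPM under 6-OHDA (0.41 ± 0.171, adjusted p = 0.611). The Adrb1 groups did not overlap there, as for 12.8% of all genes tested in that type. Of the neuropeptide Y list, 2 genes passed the filter on low counts, in 13 tests with 0 calls by edgeR and 2 unadjusted p under 0.05. Dpp4, a peptidase that trims neuropeptide Y, was measured in 12 types, for example at 169, 165 and 158 CPM in alveolar type 2 cells under vehicle and at 197, 194 and 187 CPM under 6-OHDA (0.24 ± 0.164, adjusted p = 0.857).

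Dendritic cells held the largest number of calls, 43 of 5730 genes (0.750%), with 39 higher (0.681%) and 4 lower (0.0698%). Of the 39 that rose, 5 are on the list of markers of plasmacytoid dendritic cells, the kind that makes large amounts of type I interferon after sensing nucleic acids. Tcf4, the transcription factor that specifies them, stood at 843, 936 and 1009 CPM under vehicle and at 2409, 2626 and 1741 CPM under 6-OHDA (1.28 ± 0.218, SE, edgeR adjusted p = 0.00514). Siglech, their sialic acid-binding surface receptor, stood at 186, 228 and 230 CPM under vehicle and at 435, 407 and 447 CPM under 6-OHDA (1.0 ± 0.211, adjusted p = 0.0197). Ccr9, a receptor for the gut chemokine CCL25, stood at 43.6, 21.8 and 28.0 CPM under vehicle and at 103, 189 and 140 CPM under 6-OHDA (2.14 ± 0.346, adjusted p = 0.00374). The groups did not overlap for any of these genes. The number of calls in this type was 2 without vehicle 1, 4 without 6-OHDA 2, 17 without 6-OHDA 1 and 27 without vehicle 3.

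Of 14 listed plasmacytoid markers, 12 could be tested in dendritic cells. All 12 were higher by sign, 5 were called (Tcf4, Siglech, Ccr9, Pacsin1 and Runx2), and the median log2 fold change was 1.20 against -0.01 over all genes of the type. Groups did not overlap for 10 of the 12, against 16.9% of all genes there. The other 7 included Irf8, a factor shared with cDC1, at 375, 253 and 363 CPM under vehicle and 435, 541 and 431 CPM under 6-OHDA (0.50, edgeR adjusted p = 0.401). They also included Spib (1.32, adjusted p = 0.192) and Bst2 (0.83, 0.318). Markers of the cDC1, cDC2 and mature classes gave 0 calls by edgeR in 8, 6 and 7 tests, with 1, 1 and 0 unadjusted p under 0.05. The median of the cDC1 list lay below that of all genes in 3 of the 3 types with at least 5 tested members, dendritic cells among them. Those medians ran from -0.57 to -0.08. Xcr1, the chemokine receptor of cDC1, the cross-presenting kind, did not follow its list. It stood at 60.6, 56.2 and 91.6 CPM under vehicle and at 42.3, 92.3 and 156 CPM under 6-OHDA, with overlapping groups. Ccr7, the homing receptor of mature migrating cells, stood at 318, 178 and 159 CPM under vehicle and at 142, 147 and 296 CPM under 6-OHDA, with overlapping groups. In monocytes Ccr7, named here after its values were seen, stood at 24.2, 39.8 and 34.2 CPM under vehicle and at 3.05, 3.59 and 5.12 CPM under 6-OHDA (-2.97 ± 0.520), which had the smallest adjusted p of that type and just missed the threshold (0.0575 by edgeR).

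Cells were then assigned to plasmacytoid, cDC1, cDC2 or mature classes by their marker transcripts. Plasmacytoid cells made up 13.2, 21.9 and 19.2% of assigned dendritic cells under vehicle and 27.6, 44.2 and 45.5% under 6-OHDA, a difference of 21.0 percentage points (two-sided exact permutation p = 0.1, adjusted 0.267). The markers assigned 87.0 to 94.8% of the dendritic cells of a sample, and the median depth was 1582 to 2010 transcripts under vehicle and 2025 to 2889 under 6-OHDA. With cells thinned to 1000 transcripts, which kept 165, 139 and 162 vehicle cells and 81, 77 and 49 cells under 6-OHDA, the shares were 10.7, 20.8 and 19.3% against 28.8, 42.3 and 37.2%. The groups did not overlap on either count. Under BIBO3304 the share was 22.5 to 25.7%. These shares and the marker levels come from the same transcripts and are a single observation.

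Measured against all lung cells, the change in the make-up of the dendritic cells had 3 parts. Dendritic cells as a whole made up 2.76, 2.92 and 2.57% of cells under vehicle and 2.37, 2.20 and 1.65% under 6-OHDA, which did not pass edgeR's test (-0.41 ± 0.243, adjusted p = 0.396). With alveolar macrophages left out of the total they made up 4.28, 5.08 and 4.04% under vehicle and 3.14, 2.81 and 2.08% under 6-OHDA. That difference was larger but did not pass either (-0.74 ± 0.259, edgeR adjusted p = 0.0665). Plasmacytoid cells made up 0.337, 0.556 and 0.462% of all cells under vehicle and 0.606, 0.917 and 0.710% under 6-OHDA. The cDC1 made up 1.69, 1.51 and 1.56% under vehicle and 1.34, 0.917 and 0.625% under 6-OHDA, and the mature class 0.362, 0.254 and 0.317% against 0.101, 0.145 and 0.170%. Groups of these 3 classes did not overlap, each with an exact permutation p of 0.1 (0.133 adjusted over the 8 classes), and those of cDC2 did. The total behind these class shares includes alveolar macrophages, whose own share was lower under 6-OHDA. The class shares were not tested with alveolar macrophages left out, so a higher share of all cells may reflect that total. Assigned plasmacytoid cells numbered 97 under vehicle and 87 under 6-OHDA.

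The fits were repeated without and within each class. The class markers assigned the cells, so their own levels without or within the plasmacytoid class follow from the rule, and 4 of the 43 calls (Tcf4, Siglech, Ccr9 and Pacsin1) are such markers. With plasmacytoid cells left out, 2 of 4903 genes were called (0.0408%), Mir6236 and Il1rap. Of the 43 calls, 36 could be tested there, 29 kept their sign, and their median log2 fold change in the direction of the whole type was 0.62, against 1.46 for the same genes in all dendritic cells. Runx2, which was not used to assign cells, then stood at 23.2, 67.2 and 16.9 CPM under vehicle and at 33.7, 101 and 37.3 CPM under 6-OHDA (0.74 ± 0.673, SE, edgeR adjusted p = 0.913). Within plasmacytoid cells alone 1 of 2125 genes was called (0.0471%), again Mir6236. Of the 43 calls 39 could be tested within the class, and 38 had the same sign, with a median of 0.50 against 1.44. Leaving out cDC1 gave 16 calls of 3193 genes (0.501%): of the 42 calls that could be tested, 5 were called and all 42 had the same sign, with a median of 1.05 against 1.46. Leaving out cDC2 or mature cells gave 39 and 44 calls and kept 38 and 40 of the 43.

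**Figure D3:**
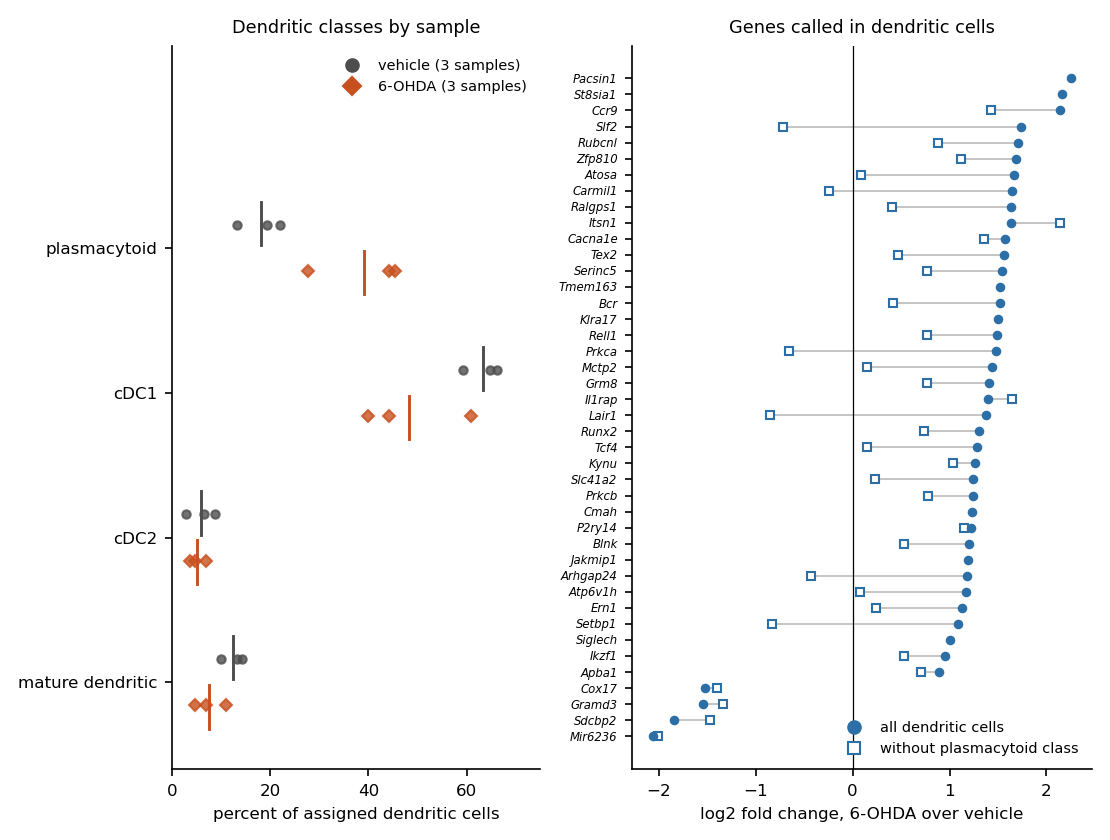
Left, share of each dendritic class among assigned dendritic cells, in percent, by sample, with ticks for group means. Right, log2 fold change of 6-OHDA over vehicle for 42 of the 43 genes called in dendritic cells, filled for all cells and open without the plasmacytoid class, where a gene could be tested there; most open points lie nearer to 0.

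Runx2, of the plasmacytoid marker list, a Runt transcription factor needed for plasmacytoid cells to leave the marrow, stood at 191, 234 and 213 CPM under vehicle and at 501, 705 and 359 CPM under 6-OHDA (1.30 ± 0.278, edgeR adjusted p = 0.0198). Among called genes outside the list, Prkca and Prkcb, protein kinases C alpha and beta, rose by 1.48 and 1.24 on the log2 scale. Blnk (1.20), an adaptor of the B cell receptor, and Ikzf1 (0.95), the factor Ikaros, also rose. Lair1 (1.37) is an inhibitory receptor for collagen and P2ry14 (1.22) a receptor for UDP-sugars. Pacsin1 (2.25), of the marker list, is a membrane-bending protein of endocytosis. Other called genes with large rises were St8sia1 (2.16), a sialyltransferase of ganglioside synthesis, Slf2 (1.74), Rubcnl (1.71), Zfp810 (1.69), Atosa (1.67) and Carmil1 (1.64).

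Il1rap encodes the accessory chain shared by the receptors of interleukin-1, interleukin-33 and interleukin-36. It stood at 43.6, 49.9 and 57.9 CPM under vehicle and at 130, 126 and 146 CPM under 6-OHDA (1.39 ± 0.286, edgeR adjusted p = 0.0175), and without plasmacytoid cells at 46.4, 59.7 and 57.1 CPM against 152, 187 and 172 CPM (1.64 ± 0.308, adjusted p = 0.0455). The call without plasmacytoid cells was lost when any 1 of the 6 samples was left out, with the compared groups only, and without ribosomal and mitochondrial genes. In all dendritic cells edgeR's adjusted p for Il1rap was 0.119 without vehicle 1, 0.0505 without vehicle 2, 0.0585 without 6-OHDA 1, 0.0793 without 6-OHDA 2 and 0.158 without the 5% of cells with most transcripts. The 4 genes that fell were Mir6236, described below, Sdcbp2 (-1.84), a PDZ protein that binds phosphoinositides, Gramd3 (-1.54), and Cox17 (-1.53), the copper chaperone of cytochrome c oxidase. Gramd3 ran at 89.0, 99.9 and 99.0 CPM under vehicle and at 36.2, 25.2 and 36.4 CPM under 6-OHDA. In dendritic cells the summed level of 8 of 14 alveolar macrophage markers was also lower under 6-OHDA, at 236, 323 and 239 CPM against 614, 1114 and 377 CPM under vehicle. Its part in these calls was not tested.

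In general capillary endothelial cells, which form most of the alveolar capillary bed and renew it, 8 of 8148 genes were called (0.0982%), 4 in each direction (0.0491%). Dusp16, a phosphatase that switches off the JNK and p38 kinases, stood at 152, 187 and 148 CPM under vehicle and at 279, 259 and 306 CPM under 6-OHDA (0.83 ± 0.142, edgeR adjusted p = 0.0291). Klf6, a Krüppel-like factor induced by injury, stood at 141, 191 and 161 CPM under vehicle and at 236, 304 and 350 CPM under 6-OHDA (0.88 ± 0.166, adjusted p = 0.0389). Samd4, an RNA-binding repressor of translation, rose by 1.11 and Creb5, a CRE-binding factor, by 0.74. The groups were separate for each of these 4 genes.

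Among the genes that fell in general capillary cells, Ccnd3 stood at 489, 591 and 382 CPM under vehicle and at 201, 155 and 78.3 CPM under 6-OHDA (-1.72 ± 0.289, edgeR adjusted p = 0.0291). Cyclin D3 fell in both endothelial types with most calls, and over all 19 types it was lower by sign in 13 and called in those 2. Tspan18, a tetraspanin that regulates calcium entry in endothelium, stood at 788, 626 and 713 CPM under vehicle and at 473, 427 and 320 CPM under 6-OHDA (-0.81 ± 0.155, adjusted p = 0.0400). Ccdc85a fell by 0.85. Without vehicle 1, or without 6-OHDA 3, this type gave 0 calls by edgeR, and without 6-OHDA 2 it gave 1.

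In interstitial macrophages, which lie in the lung's connective tissue near vessels and nerves, 3 of 6443 genes were called (0.0466%), all higher. Pde3b, a phosphodiesterase that breaks down cAMP, the second messenger of beta adrenergic receptors, stood at 146, 167 and 176 CPM under vehicle and at 446, 364 and 534 CPM under 6-OHDA (1.45 ± 0.249, edgeR adjusted p = 0.0298). Adgre4, an adhesion receptor also found on nonclassical monocytes, stood at 47.0, 24.2 and 29.3 CPM under vehicle and at 117, 159 and 76.9 CPM under 6-OHDA (1.84 ± 0.326, adjusted p = 0.0298). The 14 listed cAMP-responsive genes were measured 219 times over 19 types, 86 of them higher by sign, with Pde3b in this type as the single call. By edgeR 42 of these tests had an unadjusted p under 0.05 (19.2%, against 7.72% of all tests). Groups did not overlap for 37 (16.9%, against 14.4%). The list's median lay below that of all genes in 13 of 19 types.

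Arg1, the arginase of alternatively activated macrophages, was found in few cells. Among interstitial macrophages it was seen in 3 of 124, 13 of 196 and 3 of 78 cells of 6-OHDA samples 1 to 3 (2.42, 6.63 and 3.85%), and in 0 of 182, 188 and 160 cells of the vehicle samples. The 37 transcripts make Arg1 at least 12.1-fold higher when the vehicle group is set to a floor of 3 counts in all (edgeR adjusted p = 0.0298), and 26 of them lay in 6-OHDA 2. The same transcript was seen in 1 of 970 monocytes under 6-OHDA and in 0 to 7 alveolar macrophages per sample. Pde3b and Adgre4 lost their calls without any 1 vehicle sample, as did Arg1.

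Stromal cells gave few calls. In alveolar fibroblasts, the lipid-bearing fibroblasts of the alveolar wall, Gsg1l was the single call of 12626 genes (0.00792%). Gsg1l, an auxiliary subunit of AMPA glutamate receptors, stood at 18.1, 10.3 and 12.5 CPM under vehicle and at 48.6, 39.6 and 51.2 CPM under 6-OHDA (1.70 ± 0.223, edgeR adjusted p = 0.00543). In adventitial fibroblasts, which sheathe vessels and airways, 3 of 8590 genes were called (0.0349%), 1 higher (0.0116%) and 2 lower (0.0233%). Adamts9, a protease of the matrix proteoglycan versican, stood at 54.4, 66.9 and 55.6 CPM under vehicle and at 162, 133 and 197 CPM under 6-OHDA (1.47 ± 0.270, adjusted p = 0.0428). Fam13a, whose human locus is linked to chronic lung disease, stood at 73.1, 66.9 and 82.5 CPM under vehicle and at 22.9, 36.3 and 10.4 CPM under 6-OHDA (-1.60 ± 0.281, adjusted p = 0.0428). The Gsg1l call was lost without 6-OHDA 3, and that of Adamts9 without any 1 of the 6 samples. Alveolar macrophages gave 1 call of 12818 genes (0.00780%), a predicted gene.

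Calls in lymphatic endothelial cells (3 of 2868, 0.105%) and mesothelial cells (3 of 3141, 0.0955%) were Mir6236, which was lower (0.0349 and 0.0318% of genes), and 2 heat shock genes that were higher (0.0697 and 0.0637%), Hspa1b and Hsph1. Hspa1b encodes an inducible HSP70, which refolds damaged proteins, and Hsph1 encodes HSP105, which releases nucleotides from HSP70. Both are targets of the factor HSF1, which binds inverted repeats of the unit nGAAn. The stretch of 150 bases before each start site is shown because the same 2 genes were called in both types, with a pair of facing units in capitals, from RefSeq on GRCm38.p6, while the authors' counts used mm39. The Hspa1b stretch is chr17:34959239-34959388 on the minus strand, with the pair starting 104 bases before the start site. The Hsph1 stretch is chr5:149636337-149636486 on the minus strand, with the pair starting 33 bases before it.
Hspa1b: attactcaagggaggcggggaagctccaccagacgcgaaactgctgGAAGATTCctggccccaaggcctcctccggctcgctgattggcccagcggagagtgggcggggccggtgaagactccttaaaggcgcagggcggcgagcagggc
Hsph1: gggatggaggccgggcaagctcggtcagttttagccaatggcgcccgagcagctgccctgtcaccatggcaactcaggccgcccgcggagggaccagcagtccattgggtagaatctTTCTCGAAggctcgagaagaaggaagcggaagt
The motifs searched were GAANNTTC and TTCNNGAA, each its own reverse complement, in the 250 bases before each start site. They occurred in 6.69 and 7.17% of 32851 windows, and either occurred for 14.5% of 27025 genes. Of the 14 listed chaperone genes 11 had a window, and 8 of these held either motif (72.7%). A match is a description of the letters and not a measured site.

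The heat shock values of lymphatic cells spread widely within each group. Hspa1b in lymphatic cells stood at 8.08, 0 and 133 CPM in vehicle samples 1 to 3 and at 599, 19.7 and 1527 CPM in 6-OHDA samples 1 to 3 (3.86 ± 0.739, edgeR adjusted p = 0.00920). Vehicle 3 thus lay above 6-OHDA 2, and the groups overlapped. Hsph1 there stood at 16.2, 0 and 148 CPM under vehicle and at 1020, 39.5 and 1222 CPM under 6-OHDA (3.71 ± 0.780, adjusted p = 0.0259). In mesothelial cells the groups were separate. Hsph1 stood there at 71.1, 26.1 and 103 CPM under vehicle and at 212, 165 and 743 CPM under 6-OHDA (2.31 ± 0.472, adjusted p = 0.0392), and Hspa1b at 96.5, 34.8 and 122 CPM against 398, 152 and 867 CPM (2.32 ± 0.501, adjusted p = 0.0454). Hspa1b has a near-identical neighbour, Hspa1a, so reads may be split between them. Each of these 4 calls was lost without 6-OHDA 3, and over all 19 types the Hsph1 groups were apart in 2.

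Over all types the 14 chaperone genes were measured 226 times. By sign 202 were higher under 6-OHDA, 4 were called, and 69 had an unadjusted p under 0.05 (30.5%, against 7.72% of all tests). The median log2 fold change was 0.50, and the list's median lay above that of all genes in 19 of 19 types. The median deviation from the vehicle mean, in log2(CPM + 1) over all types and members, was -0.16, -0.18 and 0.41 in vehicle samples 1 to 3 and 0.42, 0.06 and 1.08 in 6-OHDA samples 1 to 3. Vehicle 3 and 6-OHDA 3 were the highest of their groups, and 6-OHDA 2 lay below vehicle 3. Groups did not overlap for 29 of the 226 (12.8%), against 14.4% of all tests.

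Interferon-stimulated genes, which block viral replication and display antigen, gave 0 calls by edgeR in 116 tests of the type I list. Of these tests 94 were higher by sign, and the median was 0.67. An unadjusted p under 0.05 was reached by 31 (26.7%, against 7.72% of all tests). Groups did not overlap for 20 (17.2%, against 14.4%). The list's median lay above that of all genes in 9 of the 9 types where at least 5 members could be tested. Per sample the median deviation was 0.00, 0.00 and 0.03 in vehicle samples 1 to 3 and 0.16, 1.21 and 0.12 in 6-OHDA samples 1 to 3, so that 6-OHDA 2 stood well above the rest. Irf7, the factor that amplifies type I interferon, stood in monocytes at 30.2, 12.2 and 15.2 CPM under vehicle and at 42.7, 74.2 and 36.8 CPM under 6-OHDA (1.39, adjusted p = 0.806). The interferon gamma list likewise gave 0 calls in 147 tests, with 31 at an unadjusted p under 0.05 by edgeR (21.1%). Its groups did not overlap for 24 (16.3%). The median was 0.40, and the deviations were 0.10, 0.74 and 0.22 under 6-OHDA.

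Other lists leaned the other way without calls. Alveolar macrophage markers had a median below that of all genes in 16 of the 17 types with at least 5 tested members. Over all types 18 of 142 tests were higher by sign. By edgeR 42 had an unadjusted p under 0.05 (29.6%, against 7.72% of all tests). Groups did not overlap for 51 (35.9%, against 14.4%). The median was -0.63. In alveolar macrophages themselves that median was -0.02, and their summed level was 7332, 7525 and 7231 CPM under vehicle and 7253, 8211 and 7863 CPM under 6-OHDA. In natural killer cells 4 of the 14 could be tested, and their sum was 604, 824 and 353 CPM under vehicle and 68.7, 159 and 184 CPM under 6-OHDA. The lower level in other cell types stands beside the lower share of alveolar macrophages among the cells, and whether the 2 are linked was not tested. Mitochondrially encoded protein genes were higher by sign in 13 of 128 tests, with a median of -0.42. Of these tests 45 had an unadjusted p under 0.05 by edgeR (35.2%) and 44 had groups that did not overlap (34.4%). Chemokines for neutrophils and monocytes had a median of -0.35 over 112 tests, 23 of them higher by sign, while the shares of both cell types were higher.

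Lists tied to stress hormones and to damage gave no calls that bear their name. Glucocorticoid-induced genes had a median of -0.26 over 203 tests (0 calls, 31 unadjusted p under 0.05). Genes of the oxidative stress response, the process by which 6-OHDA injures cells, had a median of -0.19 over 229 tests (0 calls, 24 unadjusted), and p53 targets -0.13 over 103 tests (0 calls, 5 unadjusted). Immediate early genes had a median of -0.19 over 335 tests, of which 106 were higher by sign. The list's median lay below that of all genes in 17 of 19 types. By edgeR 73 tests had an unadjusted p under 0.05 (21.8%, against 7.72% of all tests). Groups did not overlap for 94 (28.1%, against 14.4%). The single call was Klf6 in general capillary cells, which was higher. The unfolded protein response (0.00), the circadian clock (0.05) and cell cycle genes (0.13) had medians near 0, again with 0 calls by edgeR and 23, 9 and 11 unadjusted p under 0.05.

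**Figure D4:**
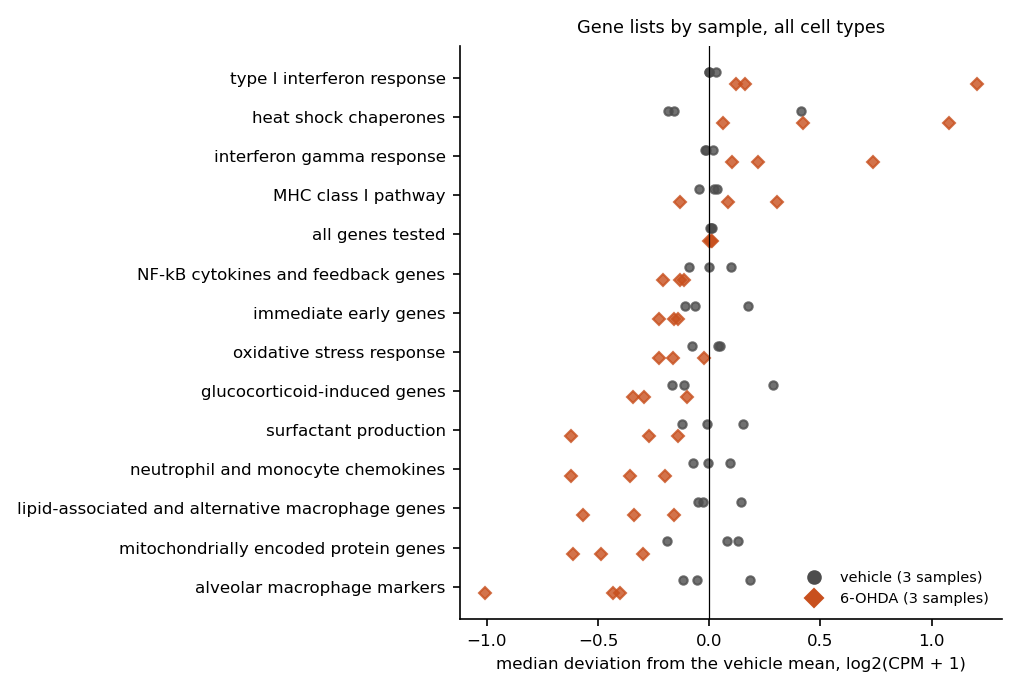
Median deviation from the vehicle mean of each gene list in each sample, in log2(CPM + 1) over all types and members, with circles for vehicle and diamonds for 6-OHDA. Heat shock chaperones spread from 0.06 to 1.08 under 6-OHDA, type I interferon genes are high in 6-OHDA 2 (1.21), and alveolar macrophage markers and mitochondrially encoded genes are lower in all 3 6-OHDA samples.

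The locus Mir6236 was the transcript with the most general difference. Its mature microRNA in RefSeq on GRCm38.p6 lies at chr9:110281353-110281371 on the plus strand and is shown with its seed, bases 2 to 8, in capitals, to identify the locus.
mmu-miR-6236: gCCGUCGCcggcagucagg
The counts are long transcripts that map to this locus and not the mature microRNA. In dendritic cells Mir6236 stood at 15370, 9876 and 8609 CPM under vehicle and at 2639, 2827 and 2667 CPM under 6-OHDA (-2.06 ± 0.280, edgeR adjusted p = 0.000978). In alveolar macrophages it stood at 20304, 10400 and 11154 CPM under vehicle and at 4820, 4859 and 3971 CPM under 6-OHDA (-1.62 ± 0.271, adjusted p = 0.0578). It was lower in 19 of 19 types, by -2.06 to -1.09 on the log2 scale, with groups that did not overlap in any of them, and it was called in 6. Under BIBO3304 it ran at 5427 to 6744 CPM in dendritic cells, between the 2 groups. It is 1 of 3 measured loci listed as linked to ribosomal RNA, which were tested 44 times, 11 of them higher by sign. Mir6236 itself gave 19 of these 44 tests, all of them lower. It also gave 19 of the 23 with an unadjusted p under 0.05 by edgeR, so the pooled count says little about the other loci. The median mitochondrial percent, the depth per cell and the treatment differ between the same samples, and their part in the level of Mir6236 was not tested.

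**Figure D5:**
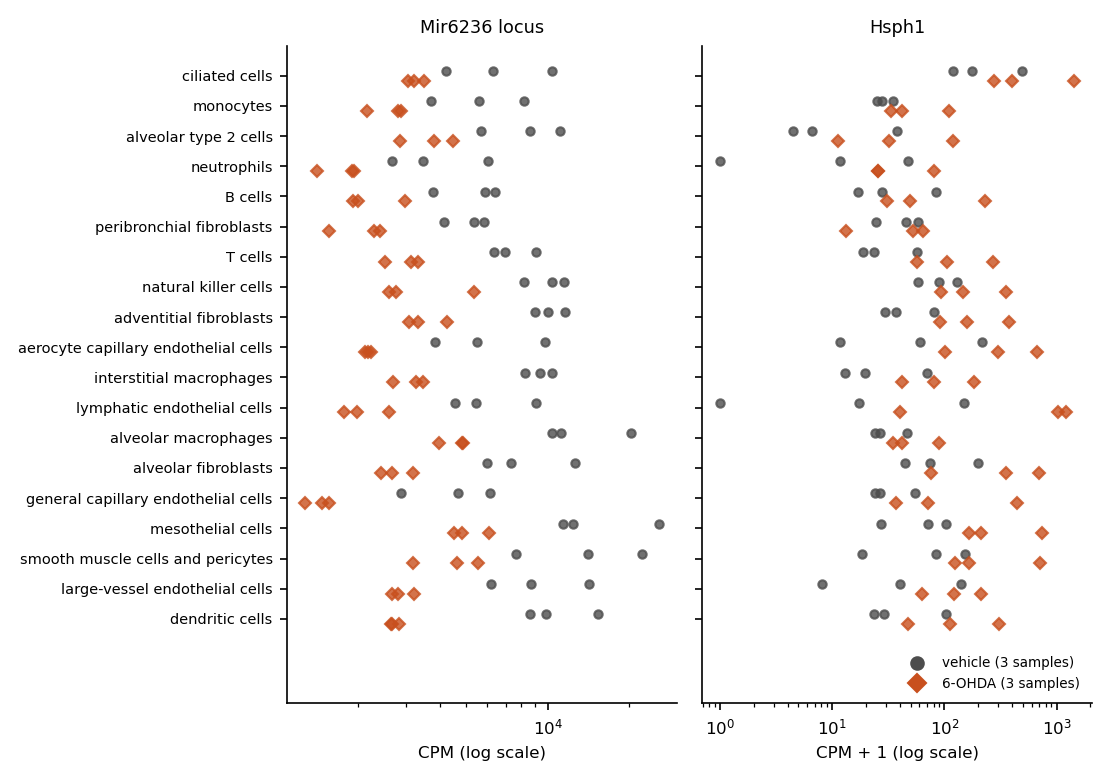
Level of Mir6236 (CPM) and of Hsph1 (CPM + 1) in each sample and cell type, on log axes, with circles for vehicle and diamonds for 6-OHDA. Mir6236 is lower in every 6-OHDA sample of every type, while Hsph1 overlaps between groups in most types.

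The same treatment was given to mice with seeded PDAC cells, in 2 samples against 2 that share no sample with the above. In these, 435 of 107528 tests were called (0.405%). Of the 70 calls made without PDAC cells that could be tested there, 65 had the same sign (92.9%), against 56.1% of all genes. For dendritic cells the same sign was seen in 42 of 43 (97.7%), against 65.2% of all genes in that type. Of the 43, 25 were also called there with the same sign, against 154 of all 5730 genes tested in dendritic cells. The plasmacytoid share of assigned dendritic cells was 18.6 and 21.6% in the vehicle-PDAC samples and 41.3 and 63.3% in the 6-OHDA-PDAC samples. Tcf4 (1.35, adjusted p = 0.00717) and Siglech (1.59, adjusted p = 0.00254) were called there by edgeR, as was Arg1 in interstitial macrophages (adjusted p = 0.000600). Vehicle-PDAC 2 is labelled as seeded but held 0 annotated cancer cells.

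In large-vessel cells Slc6a2 stood at 744 and 734 CPM in the vehicle-PDAC samples and at 479 and 551 CPM in the 6-OHDA-PDAC samples (-0.53 ± 0.239, edgeR adjusted p = 0.846). The test of the difference between the 2 effects did not pass after adjustment (1.73 ± 0.339, unadjusted p = 1.80e-05, adjusted p = 0.105), nor did that of any of the 5856 genes of this type by edgeR, of which 313 had an unadjusted p under 0.05. Of the 11 calls in this type 8 had the same sign with PDAC cells (72.7%), and 0 were called there by edgeR. Clu, for example, stood at 96.0 and 105 CPM in the vehicle-PDAC samples and at 107 and 106 CPM in the 6-OHDA-PDAC samples. In general capillary cells 7 of 8 calls had the same sign (87.5%), again with 0 called. Tests of a difference between the effects of 6-OHDA with and without PDAC cells passed for 8 of 107528 (0.00744%), of which Il1rap in dendritic cells was also called without PDAC cells. Il1rap moved in opposite directions, with 125 and 85.6 CPM in the vehicle-PDAC samples and 30.4 and 27.8 CPM in the 6-OHDA-PDAC samples (-1.87, adjusted p = 0.0104).

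6-OHDA was also compared directly with BIBO3304 without PDAC cells, since both treatments share the vehicle samples. Calls numbered 132 of 113537 tests (0.116%). In large-vessel cells Slc6a2 stood at 497, 525 and 459 CPM under BIBO3304 and was lower under 6-OHDA (-1.99 ± 0.234, edgeR adjusted p = 1.17e-05), 1 of 23 calls in that type. In dendritic cells 0 genes differed between the treatments by edgeR, with 480 at an unadjusted p under 0.05. In interstitial macrophages 77 did.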

How the data were processed

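Lung cells were barcoded in rounds of splitting and pooling with the Parse Evercode WT v3 kit, with oligo(dT) and random hexamer primers, after digestion, red cell lysis and sorting of live cells, and sequenced on an Ultima instrument, per the labels' protocols. The authors deposited raw counts of transcripts for 38003 genes in 80449 cells, with a table that gives each cell's sample, treatment, seeding, cell type and percent of mitochondrial transcripts, and per the submitters' processing notes they used the mm39 build and Seurat 5.3.0. The sources used here do not give the aligner, the counter or any removal of doublets. Deposited cells held at least 301 genes and at most 9.99% mitochondrial transcripts, and for 99.0% of cells the matrix total equalled the deposited one. The 16 archive samples are sublibraries that mix all groups, so the groups come from the deposited cell table. No doublet caller was run; an alternative leaves out the 5% of cells with most transcripts.

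Counts were summed per sample and annotated type where a sample held at least 20 cells (10 in marker-defined classes). They were tested with edgeR 4.0.16 (filterByExpr, TMM, quasi-likelihood test) in R 4.3.3, with all samples of the 6 groups in 1 fit per type and Benjamini-Hochberg adjustment within a type at 0.05. Cell numbers per type were tested with the same quasi-likelihood test, with the sample's total as library size, no expression filter and no TMM scaling. Single values were compared by two-sided exact permutation tests over samples, computed in R. The Clopper-Pearson intervals of cells with a transcript came from scipy 1.17.1. The fits were also run on simulated counts with known changes. Those counts had the same spread for every gene and no shift of whole samples. That run therefore cannot show how far the calls depend on single samples. Alternatives were RLE scaling, no gene filter, at least 50 cells, the compared groups only, a replicate block, DESeq2 1.42.0, adjustment over all types, leaving out ribosomal and mitochondrial genes, and leaving out each of the 6 samples. For cell numbers, TMM scaling and leaving out alveolar macrophages were further alternatives. A fit of cell numbers with no trend of the spread was added after the data had been seen.

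The genes named are the 8 largest rises and 8 largest falls among calls with a mean of at least 20 CPM in a group in the 3 types with most calls, up to 4 calls elsewhere, members of the noradrenaline and neuropeptide Y lists at 20 CPM or more, up to 4 called members of each other list, and Mir6236; others are named as examples of lists or after their values were seen. The comparison, the gene lists and this rule were chosen with earlier results of these data known. Promoter and microRNA sequences come from RefSeq on GRCm38.p6, and no coordinates were moved between builds. Results for a few genes are not reported here.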

Additional observations from a re-analysis of the deposited data

Results flagged for a closer look

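The effect of 6-OHDA differed between lungs with and without seeded PDAC cells for 8 genes by edgeR's test of the difference, with Benjamini-Hochberg adjustment within each type. Values below are the log2 effect with PDAC cells minus that without, from 2 samples against 2 and 3 against 3. Il1rap in dendritic cells differed by -3.26 (adjusted p = 0.00482), since it was higher under 6-OHDA without PDAC cells (1.39) and lower with them (-1.87). Colq in alveolar fibroblasts, the collagen tail of acetylcholinesterase, differed by -1.86 (adjusted p = 0.0339), with 39.9, 24.3 and 36.3 CPM under vehicle, 38.3, 40.4 and 41.0 CPM under 6-OHDA, 53.5 and 63.3 CPM under vehicle with PDAC cells and 21.4 and 15.7 CPM under 6-OHDA with PDAC cells. Slc6a2 in adventitial fibroblasts differed by -8.17 (adjusted p = 0.0373), a fitted value that is no bound, because both 6-OHDA-PDAC samples were at 0 CPM against 27.1 and 29.0 CPM under vehicle with PDAC cells. In interstitial macrophages Blnk differed by -2.31, Casp4 by -1.77, Ctnnd2 by -2.79, Mctp1 by -1.71 and Nav2 by -2.32. Of these 5 genes none was called by edgeR without PDAC cells, where their effects ran from -0.62 for Nav2 to -0.07 for Casp4. Vehicle-PDAC 2 held 0 annotated cancer cells.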

How the results depend on the processing

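The 76 calls became 641 without a gene filter, 233 with DESeq2, 195 with only the compared groups in the fit (86 of them in alveolar macrophages) and 21 with adjustment over all types. In dendritic cells the 43 calls became 97 without a gene filter, 86 with DESeq2 and 7 over all types. The 2 calls without plasmacytoid cells became 22 without a gene filter, 1 with the compared groups only and 0 without ribosomal and mitochondrial genes. In general capillary cells the 8 calls became 28, 34, 2 with the compared groups only, 2 over all types and 3 without the 5% of cells with most transcripts. In large-vessel cells the 11 calls became 38 and 24, 5 with the compared groups only and 4 over all types, and the 7 within venous cells became 40, 21 and 4. With PDAC cells 435 calls became 1139 without a gene filter and 194 over all types. The 8 differences between settings became 187, 62 with DESeq2 and 0 over all types. Against BIBO3304 the 132 calls became 819, 240, 20 over all types and 231 without the 5% of cells. Of the calls without PDAC cells, DESeq2 kept 68 of 72 and the fit over all types 19 of 76. The causes of these changes were not tested. Whether the replicate numbers pair the samples was not settled. The deviations of same-numbered samples had median correlations of 0.02, 0.07 and 0.03 over types. They ran from -0.04 in lymphatic endothelial cells to 0.22 in alveolar macrophages. All 3 were above 0 in alveolar macrophages (0.10, 0.22 and 0.16) and alveolar fibroblasts (0.17, 0.10 and 0.14), which held many cells. With a replicate block, 108 calls were made, 70 of them in dendritic cells. Leaving out each of the 6 vehicle and 6-OHDA samples without PDAC cells in turn gave 4 to 87 calls in all, 2 to 64 in dendritic cells, 0 to 8 in general capillary, 1 to 18 in large-vessel and 1 to 17 in venous cells, and 1 throughout in dendritic cells without the plasmacytoid class. It gave 365 to 484 calls with PDAC cells, 2 to 22 differences between settings and 27 to 209 calls against BIBO3304, where no PDAC or BIBO3304 sample was left out. Shares moved from -0.84 to -0.68 for alveolar macrophages, 1.43 to 2.0 for monocytes and 1.08 to 1.41 for neutrophils (0.93 with alveolar macrophages left out), and 2 to 4 types were called. The plasmacytoid difference ran from 17.8 to 26.7, the venous from -13.1 to -7.75 and the classical monocyte from -1.38 to 9.09 percentage points (-2.36 when thinned to 1000 transcripts). With all samples kept and TMM scaling of cell numbers, the share effect was -0.99 for alveolar macrophages and 1.46 for monocytes, and 3 types were called.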
